A study of Mus musculus with 2 samples.

Results

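Platelet-like barcodes were taken from 2 single-cell RNA libraries of mouse abdominal aorta. A barcode, the sequence that tags the contents of 1 captured well, was a member when it held at least 500 UMIs (unique molecular identifiers, 1 per captured transcript) and at least 250 genes, with at most 25% of its UMIs from mitochondrial genes. It also had to hold a UMI of at least 2 of the 5 platelet markers Ppbp, Itga2b, Gp9, Gp1bb and Tubb1, no UMI of endothelial Cdh5, at most 2 UMIs of fibroblast Col3a1, and at most 2 UMIs of the macrophage genes C1qa, C1qb and C1qc together. The rule found 108 members among 8784 kept barcodes of the Gsdme-KO library and 163 among 7619 of the WT library, 271 of 16403 in all. In both groups an abdominal aortic aneurysm had been induced with PPE (porcine pancreatic elastase, an enzyme that degrades elastin). The Gsdme-KO mice lacked Gsdme, a gasdermin that forms membrane pores after caspase cleavage, in the whole body, and the WT mice were C57BL/6J. The labels give no age, no number of animals and no aorta without PPE. Red blood cells were lysed before capture on the BD Rhapsody system.

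Each group was 1 library, so no difference between Gsdme-KO and WT has a replicate check, and no test was run. Intervals are exact 95% intervals that cover counting error only. Members held 154103 UMIs in the Gsdme-KO library and 242778 in the WT library, against 52188483 and 38872728 UMIs over all kept barcodes. The libraries shared 73 barcode sequences, and 1 Gsdme-KO and 1 WT member were among them, with no sequence a member in both. Gsdme itself had 0 UMIs in the Gsdme-KO members and 1 UMI in the WT members. A count of 0 among 108 members allows a share of up to 3.36% with a UMI, so the deletion was not detectable in these barcodes. Gsdme was still counted in other barcodes of the Gsdme-KO library. Among barcodes with neutrophil genes, 6 Gsdme-KO and 9 WT members included, the share with a Gsdme UMI was 1.89% (WT 4.44%). It was 1.35% with macrophage genes (WT 2.69%) and 1.003% with fibroblast genes (WT 3.22%). The labels do not say which part of the gene was deleted, so these counts do not check the label.

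Platelets are fragments shed by megakaryocytes. They have no nucleus, carry RNA from their parent cell, and translate little of it. Their alpha granules store chemokines and adhesive proteins, their surface receptors bind von Willebrand factor, collagen and fibrinogen, and in an injured or aneurysmal aorta they are found in the thrombus and attached to leukocytes.

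Genes outside the rule bore out the platelet label for most members. A panel of 10 further platelet genes was read for this, among them the surface receptors Clec1b, Gp1ba, Gp5, Gp6 and Treml1, the ADP receptor P2ry12, the 12-lipoxygenase Alox12, coagulation factor F5 and the G protein subunit Gng11. At least 3 panel genes were held by 92 of 108 Gsdme-KO members (85.2%, 77.1 to 91.3) and by 148 of 163 WT members (90.8%, 85.3 to 94.8). No panel gene was seen in 2 Gsdme-KO and 4 WT members. The median member held 6 panel genes in the Gsdme-KO library and 7 in the WT library.

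Members just inside the threshold, with 2 rule markers, numbered 63 in the Gsdme-KO and 78 in the WT library. At least 3 panel genes were seen in 81.0% of those 63 and in 82.1% of those 78. Barcodes just outside, with 1 rule marker and passing the same exclusions, numbered 240 and 234, and 17.9% of the Gsdme-KO ones and 9.83% of the WT ones held 3 panel genes. The rule therefore left out 43 Gsdme-KO and 23 WT barcodes that held 3 panel genes but 1 rule marker. With no rule marker, 1 of 3153 Gsdme-KO and 3 of 2936 WT barcodes did so.

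**Figure D1:**
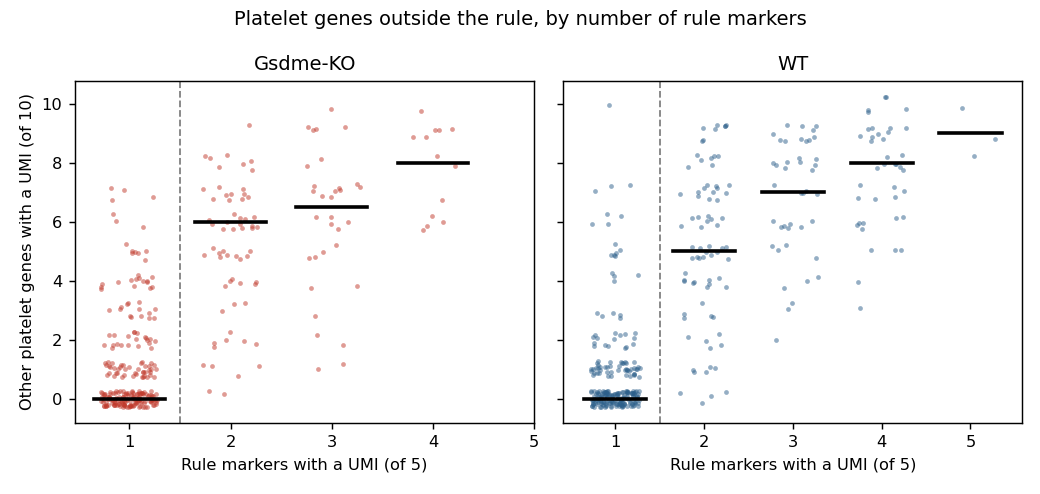
Number of the 10 panel genes with a UMI (y axis) against the number of the 5 rule markers with a UMI (x axis) in barcodes that pass the exclusions, with Gsdme-KO left and WT right; points are jittered barcodes, black bars are medians and the dashed line is the threshold. The median is 0 panel genes at 1 rule marker in both libraries, and 6 in Gsdme-KO and 5 in WT barcodes at 2 rule markers.

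The rule markers were unequal in what they contributed. Ppbp, the precursor of platelet basic protein, was seen in 100% of Gsdme-KO and 99.4% of WT members. Itga2b, the alpha subunit of the fibrinogen receptor, was seen in 63.0% and 65.0%, Gp1bb of the von Willebrand factor receptor in 48.1% and 54.6%, and Gp9 of the same receptor in 38.9% and 52.8%. Tubb1, the platelet-specific beta tubulin, went against the label: it was seen in 4 Gsdme-KO members (3.70%) and 14 WT members (8.59%), with 4 and 17 UMIs. Its summed level in members was at least 1.41 times that of the highest of 6 comparison populations in each library, after adding 5 CPM (UMIs of a gene per 1000000 summed UMIs) to each. The same lower figure of the 2 libraries was 115 for Ppbp, 62.2 for Gp9 and 55.8 for Gp1bb. The members were chosen by these UMIs, together with the totals of UMIs and genes, the mitochondrial share and the excluded genes, so the values are given as a description.

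The exclusions removed more barcodes than they kept in the Gsdme-KO library. Of barcodes with at least 2 rule markers, 162 of 270 Gsdme-KO and 117 of 280 WT barcodes failed an exclusion. Col3a1 was over its limit in 132 Gsdme-KO and 84 WT barcodes, the C1q genes in 53 and 64, and Cdh5 was present in 8 and 3. These excluded barcodes were deep, with a median of 10463.5 UMIs in Gsdme-KO and 8202 in WT, whereas members had a median of 987.5 UMIs (503 to 6711) in Gsdme-KO and 1117 (505 to 10320) in WT. The kept barcodes as a whole had medians of 4062 and 3835 UMIs. The lowest total over all deposited barcodes (9034 in Gsdme-KO, 7736 in WT), read before the minimum of the rule was applied, was 500 UMIs in both libraries, so barcodes with fewer UMIs were not analysed here.

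The glycoproteins that define the platelet surface sit at separate places in the genome. In 4 of the genes that stood far above the comparison populations (Clec1b, Gp5, Gp9 and Itga2b), the 250 bases before the start of the gene are printed from RefSeq (GRCm38.p6, the same build as mm10) to show the letters searched. Capitals mark AGATAA or TGATAA, the word bound by GATA factors, and AGGAAG, a word bound by ETS factors such as FLI1, on either strand. The sequences are Clec1b at chr6:129397047-129397296 (plus strand), Gp5 at chr16:30310782-30311031 (minus strand), Gp9 at chr6:87777820-87778069 (plus strand) and Itga2b at chr11:102469884-102470133 (minus strand), each on its gene's strand, 5′ to 3′.
Clec1b: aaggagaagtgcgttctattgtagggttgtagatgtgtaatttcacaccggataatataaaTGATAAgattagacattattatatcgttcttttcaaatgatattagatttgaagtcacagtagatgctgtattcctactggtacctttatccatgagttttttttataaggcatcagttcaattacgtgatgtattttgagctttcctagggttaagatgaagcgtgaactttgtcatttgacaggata
Gp5: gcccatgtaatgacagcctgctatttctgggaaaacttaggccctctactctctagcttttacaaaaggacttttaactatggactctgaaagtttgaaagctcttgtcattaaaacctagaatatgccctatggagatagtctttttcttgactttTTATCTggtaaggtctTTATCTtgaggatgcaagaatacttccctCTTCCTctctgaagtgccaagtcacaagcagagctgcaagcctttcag
Gp9: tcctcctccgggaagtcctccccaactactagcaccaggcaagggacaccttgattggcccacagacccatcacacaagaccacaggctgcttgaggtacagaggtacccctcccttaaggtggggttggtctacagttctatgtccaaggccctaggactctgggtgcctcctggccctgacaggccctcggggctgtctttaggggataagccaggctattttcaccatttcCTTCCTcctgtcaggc
Itga2b: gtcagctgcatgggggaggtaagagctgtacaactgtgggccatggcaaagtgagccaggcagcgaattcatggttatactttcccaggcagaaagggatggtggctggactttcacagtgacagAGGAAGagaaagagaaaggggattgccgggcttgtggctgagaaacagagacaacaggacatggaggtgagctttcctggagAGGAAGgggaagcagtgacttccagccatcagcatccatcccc

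Gp5 held both words, with GATA words starting 93 and 77 bases and an ETS word 48 bases before the start of the gene. Clec1b held a GATA word 189 bases before it, Gp9 an ETS word 16 bases before it, and Itga2b ETS words 125 and 43 bases before it. Of the 20 genes furthest above the comparison populations (described in the next paragraph), 15 had a promoter in the RefSeq table. The GATA words were in 4 of the 15 (26.7%: Clec1b, Gp5, Gp6 and Mpig6b), against 17.0% of 27025 promoters of the same length. AGGAAG was in 5 of 15 (33.3%), against 29.2% of all. Both shares lay near those of all promoters, and the letters alone do not mark a bound site.

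Platelet genes outside the rule also set the members apart from the comparison populations, from which members had been left out. Of the genes listed next, Ppbp, Gp9, Gp1bb and Itga2b are rule markers and stand high through the choice of members. The 20 genes with the highest summed level over that of the highest comparison population, by the lower of the 2 libraries, included Nrgn, Ppbp, Alox12, Clec1b, Mpig6b, 1810058I24Rik, Gp9, Treml1, Gp6, Gp1bb, Gp5, Itga2b, Rgs18, Gchfr, Gng11, P2ry12, Lsm12, Myl9 and H2bc4. Nrgn, which encodes the calmodulin-binding protein neurogranin and is known as an abundant platelet transcript, stood at least 133 times above that population in each library, Alox12 113 times and Clec1b, the podoplanin receptor, 94.8 times. Rgs18, a regulator of G protein signalling in platelets, stood at least 49.4 times above it. Clec1b overlaps Clec9a on the same strand, Gp1bb overlaps Sept5 on the same strand, and P2ry12 overlaps Med12l on the other strand, so their counts may hold reads of the neighbour.

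The comparison populations were set by their own genes: neutrophil, macrophage, T cell, B cell, fibroblast and endothelial genes. A barcode that met the genes of several populations was left out of all of them. Members were also left out of them for summed levels and marker lists, but not for shares of single genes. Shares of barcodes with a UMI depend on depth, so each barcode was thinned to 500 UMIs, which every kept barcode reached. Nrgn was then seen in 92.6% of Gsdme-KO and 94.5% of WT members, and in at most 5.86% of the barcodes of any comparison population. Pf4, the alpha granule chemokine platelet factor 4, was seen in 81.5% and 90.8% of members. It was also seen in 14.4% of Gsdme-KO and 14.1% of WT macrophage-gene barcodes, 3.32% and 1.802% of fibroblast-gene barcodes and 0.625% and 1.12% of B cell-gene barcodes. Ppbp, a rule marker, was in 1.69% and 1.97% of macrophage-gene barcodes and 3.63% and 3.99% of fibroblast-gene barcodes.

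Several granule and coagulation genes of the platelet lists were held by other cells as well. Thbs1, the secreted adhesive protein thrombospondin 1, was in 46.3% of Gsdme-KO and 46.6% of WT members, close to 46.1% and 45.9% of neutrophil-gene barcodes. F13a1, the A chain of coagulation factor XIII, was in 28.7% and 32.5% of members, below 52.2% and 35.1% of macrophage-gene barcodes. Values of Thbs1 and F13a1 in members can therefore include transcripts of leukocytes, which was not tested.

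**Figure D2:**
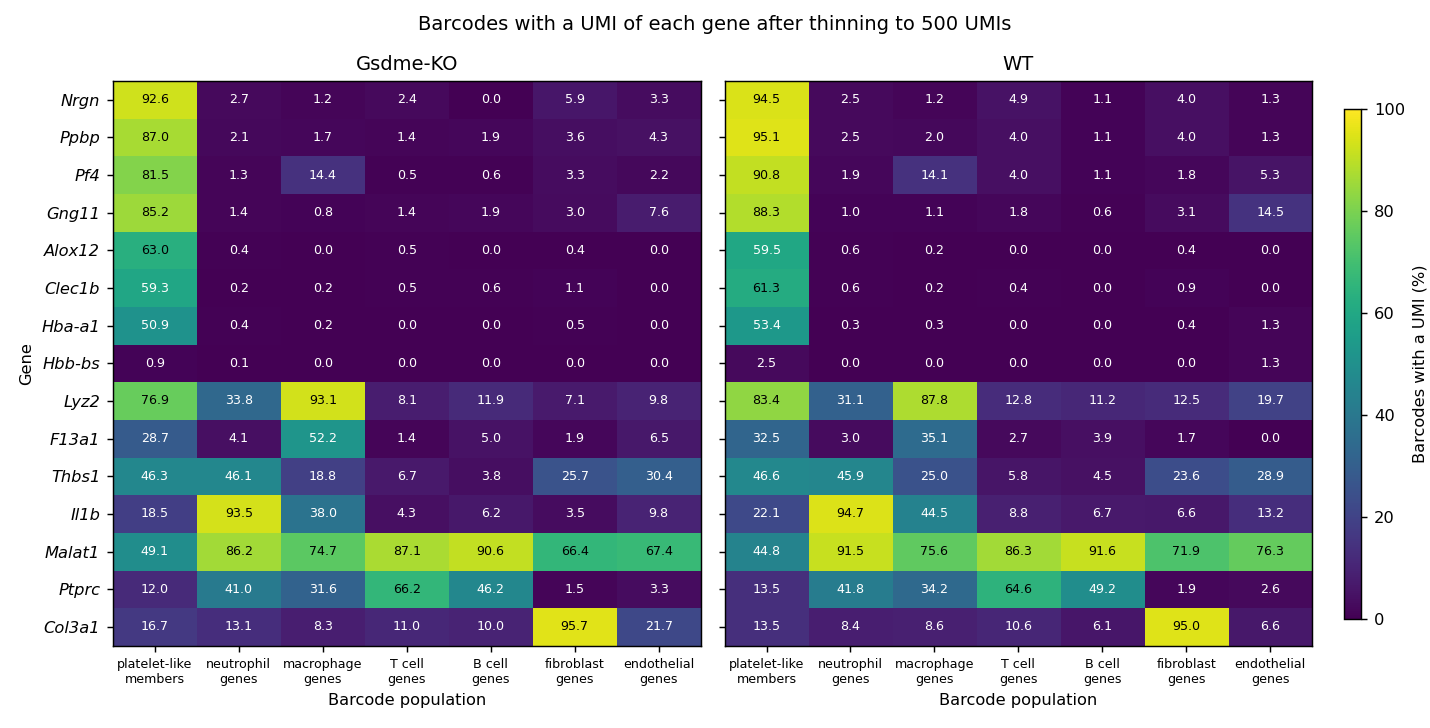
Share of barcodes (%) with a UMI of each gene (rows) after thinning to 500 UMIs, in members and in 6 populations set by their own genes (columns), with Gsdme-KO left and WT right. Nrgn, Ppbp, Alox12, Clec1b and Hba-a1 stand out in the member column, Hbb-bs does not, and Lyz2 is high in members and in macrophage-gene barcodes alike.

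Alpha globin and lysozyme transcripts were common in members. Hba-a1 was seen in 50.9% of Gsdme-KO and 53.4% of WT members after thinning, and in at most 1.32% of barcodes of any comparison population. The beta globin gene Hbb-bs was seen in 0.926% and 2.45% of members. Over all their UMIs, members held 166 UMIs of Hba-a1 in Gsdme-KO and 312 in WT, against 4 and 12 UMIs of Hbb-bs, 4 and 7 of its near-identical copy Hbb-bt, and 16 and 46 of Hba-a2, a near-identical copy of Hba-a1. The counting may split or drop reads shared by such copies, which was not tested. The red cell genes Alas2 and Slc4a1 were at 0 UMIs in both libraries.

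Lyz2, the lysozyme gene of macrophages and neutrophils, was seen in 76.9% of Gsdme-KO and 83.4% of WT members after thinning. It was in 93.1% and 87.8% of macrophage-gene barcodes, 33.8% and 31.1% of neutrophil-gene barcodes and at most 19.7% of the other comparison populations. Ptprc, the pan-leukocyte antigen CD45, was in 12.04% of Gsdme-KO and 13.50% of WT members, against 31.6% and 34.2% of macrophage-gene and 41.0% and 41.8% of neutrophil-gene barcodes. Ptprc was seen less often than Lyz2 in members and in macrophage-gene barcodes, and more often than Lyz2 in neutrophil-gene barcodes. The source of the Lyz2 transcripts in members was not tested.

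Malat1 and ribosomal protein transcripts were low in members. Malat1, a long noncoding RNA kept in the nucleus, was in 49.1% of Gsdme-KO and 44.8% of WT members after thinning, and in 66.4% to 91.6% of barcodes of the comparison populations. Ribosomal protein genes made up a median of 0.788% of a member's UMIs in Gsdme-KO and 0.946% in WT. Neutrophil-gene barcodes had 1.14% and 1.06%, and the other comparison populations 3.23% to 7.44%. Mitochondrial genes made up a median of 7.44% in Gsdme-KO and 6.80% in WT members, against 0.496% and 0.420% in neutrophil-gene barcodes and 7.28% and 5.80% in B cell-gene barcodes, the lowest and the highest of the comparison populations. The mitochondrial share was one of the values of the rule.

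Members fell along a range from strongly to barely platelet-like. The 20 genes furthest above the comparison populations held a median of 9.92% of a member's UMIs in Gsdme-KO (0.102 to 15.6%) and 11.3% in WT (0.0307 to 17.7%). Their share was under 3% in 22 Gsdme-KO members (20.4%) and 21 WT members (12.9%). The bound of 3% was chosen after the values were seen, and 8 Gsdme-KO and 11 WT members lay between 2 and 4%.

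The members under 3% were deeper and held leukocyte genes. Their median depth was 2512 UMIs in Gsdme-KO and 2146 in WT, against 873.5 and 968 UMIs in the members at or above 3%. Ptprc was seen in 72.7% of the 22 Gsdme-KO and 90.5% of the 21 WT members under 3%, and in 8.14% and 11.97% of those above. Malat1 was in 100% and 95.2% of the members under 3%. Hba-a1 went the other way, in 31.8% of Gsdme-KO and 23.8% of WT members under 3%, against 72.1% and 81.0% of those at or above 3%. Lyz2 was in 93.02% and 96.48% of the members at or above 3%, and in 63.6% and 81.0% of those under 3%. The members at or above 3% held other leukocyte genes as well. Il1b was in 17.4% of them in Gsdme-KO and 33.1% in WT, and H2-Aa in 25.6% and 31.0%.

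**Figure D3:**
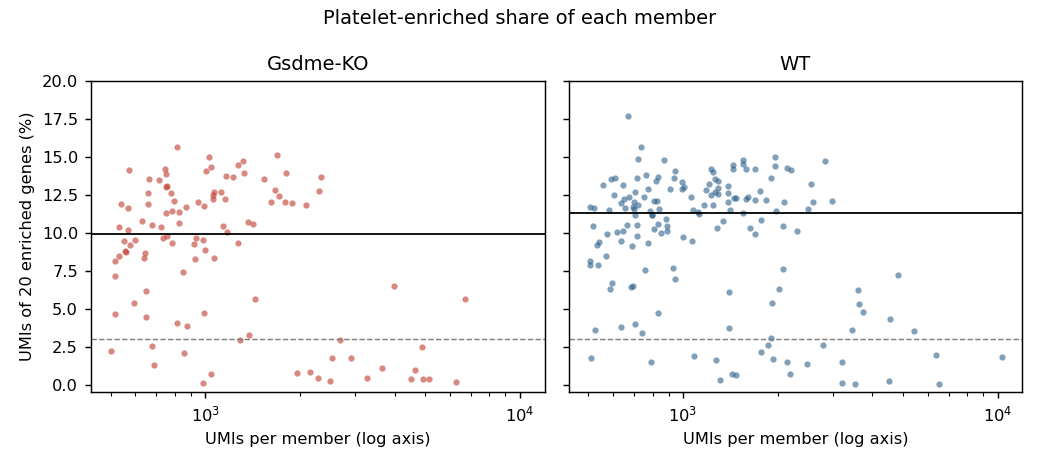
Share of each member's UMIs from the 20 genes furthest above the comparison populations (%, y axis) against its UMIs (log x axis), with Gsdme-KO left and WT right; the solid line is the median of the members (9.92% in Gsdme-KO, 11.3% in WT) and the dashed line is at 3%. Most members lie between 5 and 15%, and a group of deeper members lies near 0.

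Because they were deep, the members under 3% supplied 39.1% of all member UMIs in Gsdme-KO and 24.99% in WT. Summed levels therefore mix different amounts of other RNA in the 2 libraries, and many ratios below are also given for the members at or above 3% (86 in Gsdme-KO, 142 in WT). The 20 enriched genes set that bound, so for those among them, such as Ppbp, Gp5, Gp9, Gp1bb, Gp6, Itga2b, Treml1, P2ry12, Gng11, Alox12 and Rgs18, the values at or above 3% are a description of members kept for holding them. Dendritic cell genes summed to 763 CPM in the Gsdme-KO and 132 CPM in the WT members under 3%, and the class II gene H2-Aa to 3582 and 1533 CPM. Neutrophil genes summed to 2736 and 2456 CPM in the same members. In the members at or above 3% neutrophil genes summed to 181 CPM in Gsdme-KO and 1241 CPM in WT.

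Markers of other cell types were read in all members, with at least 2 genes of a list counted as a sign of that type. Any of 13 such lists was present in 60 of 108 Gsdme-KO members (55.6%, 45.7 to 65.1) and 97 of 163 WT members (59.5%, 51.6 to 67.1). After thinning to 500 UMIs the shares were 29.6% and 28.8%. Fibroblast genes were the most frequent, in 32.4% of Gsdme-KO and 28.2% of WT members. The comparison populations set by other genes, at greater median depth, had 28.9% to 71.7% in Gsdme-KO and 23.8% to 74.1% in WT. After thinning, members had 12.96% and 8.59%, and these populations at most 7.31% and 6.28%. Members and populations were chosen by different rules on fibroblast genes, so no excess in members is read from these shares. Macrophage genes were in 16.7% and 19.6% of members, erythroid genes in 14.8% and 25.8%, and neutrophil genes in 8.33% and 8.59%. Nearly all erythroid UMIs were of Hba-a1 and its near-identical copy Hba-a2, which can count as 2 genes. The erythroid shares and the totals over the 13 lists may therefore be too high, which was not tested. The same holds for the later setting without members holding markers of another type, which may leave out too many members. Endothelial genes were in 0 of 108 and 0 of 163, where Cdh5 had been excluded by the rule.

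Neutrophil genes were also read in members and in the populations set by other genes. After thinning, 2 neutrophil genes were seen in 6.48% of Gsdme-KO (2.65 to 12.9) and 6.75% of WT members (3.42 to 11.8). T cell, B cell, macrophage, fibroblast and endothelial populations had at most 0.559%. These populations had lost every barcode that also met the genes of the neutrophil population, while 6 Gsdme-KO and 9 WT members met them. The shares are therefore not alike, and no excess in members is read from them. S100a8, a neutrophil calcium-binding protein, was seen in 6 Gsdme-KO and 12 WT members. Genes of other rare types were nearly absent: mast and basophil genes had 0 UMIs in Gsdme-KO and 5 in WT members, and genes of megakaryocytes in division had 10 and 27 UMIs.

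Members made up a smaller share of the Gsdme-KO library than of the WT library. They were 1.23% of kept Gsdme-KO barcodes (1.01 to 1.48) and 2.14% of kept WT barcodes (1.83 to 2.49), a ratio of 0.575 (0.446 to 0.737). Per barcode with neutrophil genes, the values were 10.8% and 16.5%. The ratio was below 1 under all 9 other ways of counting that were tried, between 0.459 and 0.836. It lay closest to 1 when the exclusions on Cdh5, Col3a1 and C1q genes were dropped, at 3.07% in Gsdme-KO and 3.68% in WT. With 1 library per group, the genotype and anything else that differed between the libraries cannot be told apart.

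Levels in members were compared as CPM of the UMIs summed over members. A gene counted as measured with at least 20 UMIs over the 2 libraries, and 3 UMIs were worth 19.5 CPM in Gsdme-KO and 12.4 CPM in WT. Of 2804 measured genes, 605 (21.6%) were at least 1.5-fold higher and 519 (18.5%) at least 1.5-fold lower in Gsdme-KO, 40.1% in all, and their median log2 ratio was 0.02. Of all measured genes, 51.2% lay above a ratio of 1. These values are the background for the lists that follow.

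Granule cargo genes showed no common direction. Of 20 genes, 16 were measured, 4 were at least 1.5-fold higher (Cd63, Pdgfb, Selp and Sparc) and 3 at least 1.5-fold lower (Pdgfa, Pf4 and Thbs1), with a median log2 ratio of -0.13. Pf4 had 767 UMIs (4977 CPM) in Gsdme-KO and 2099 UMIs (8646 CPM) in WT members, a ratio of 0.576 (0.529 to 0.626). The median member held 6 UMIs of Pf4 in Gsdme-KO and 10 in WT, with highest values of 33 and 53, so the members overlapped widely. At or above 3%, the Pf4 ratio was 0.694 (0.636 to 0.756), and over 13 alternatives it stayed between 0.511 and 0.694.

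Ppbp, the neighbour of Pf4 in the chemokine cluster of chromosome 5, was one of the genes that chose the members. It had 11622 CPM in Gsdme-KO and 15306 CPM in WT, a ratio of 0.759 (0.717 to 0.804), and 0.913 (0.861 to 0.968) at or above 3%. Mmrn1, the factor V carrier multimerin 1, had 694 and 1005 CPM, a ratio of 0.691 (0.545 to 0.871) that was 0.881 (0.691 to 1.12) at or above 3%. Thbs1 had 1369 and 2204 CPM, a ratio of 0.621 (0.527 to 0.730). The Thbs1 ratio was 0.717 (0.577 to 0.886) at or above 3%, and 1.02 without the members that held markers of another type. F5 (1596 and 1520 CPM, and a ratio of 1.28 at or above 3%), Srgn, which encodes the granule proteoglycan serglycin (4581 and 4795 CPM), and Tgfb1 (156 and 152 CPM) had ratios of 1.05, 0.956 and 1.02.

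The growth factor genes Pdgfa and Pdgfb moved apart on few counts. Pdgfa had 7 UMIs in Gsdme-KO and 33 in WT, a ratio of 0.334 (0.125 to 0.768), and Pdgfb 16 and 6 UMIs, a ratio of 4.20 (1.56 to 13.1). Sparc, a matrix protein also made by fibroblasts, had 480 and 264 CPM, a ratio of 1.82 (1.29 to 2.59) over all members and of 0.413 in members with 3 rule markers. At or above 3% the Sparc ratio was 1.81 (1.22 to 2.66). Cd63, a granule membrane protein, had a ratio of 1.68 (1.10 to 2.57), and of 1.00 (0.500 to 1.94) at or above 3%.

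Adhesion receptor genes were lower in Gsdme-KO by a small amount that depended on the members used. Of 20 genes, 18 were measured, 17 lay below a ratio of 1, 5 were at least 1.5-fold lower (Cd36, Esam, F11r, Gp1ba and Treml1) and 0 at least 1.5-fold higher, with a median log2 ratio of -0.32. In the members at or above 3% the median was -0.05. The list holds the rule markers Itga2b, Gp9 and Gp1bb, which helped to choose the members and are not among the 5 lower genes. Itga2b had 701 CPM in Gsdme-KO and 840 CPM in WT, a ratio of 0.834 (0.654 to 1.06), and 0.986 at or above 3%. Over all members the ratios were 0.837 for Gp5, 0.800 for Gp9, 0.788 for Gp1bb and 0.986 for Gp6, the collagen receptor. At or above 3%, a bound these genes helped to set, they were 1.01 for Gp5, 0.920 for Gp9, 0.923 for Gp1bb and 1.16 for Gp6. Itgb3, the partner of Itga2b in the fibrinogen receptor, was the gene above 1, at 805 and 729 CPM, a ratio of 1.10 (0.870 to 1.40), and of 1.36 (1.06 to 1.74) at or above 3%.

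Treml1, a granule-stored receptor of activated platelets, had 591 CPM in Gsdme-KO and 951 CPM in WT, a ratio of 0.621 (0.481 to 0.794). It was seen in 50% of Gsdme-KO and 60.7% of WT members. Its ratio was 0.766 (0.590 to 0.987) at or above 3% and between 0.547 and 0.782 over 13 alternatives. The low-count genes were less steady: Cd36, a scavenger receptor that macrophages also express, had 13 and 50 UMIs and a ratio of 0.410 (0.204 to 0.765), which turned to 1.68 without members holding markers of another type.

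The receptors for soluble agonists were thinly counted. Of 10 genes, 4 were measured, and F2rl2, the protease-activated receptor that cooperates in thrombin signalling of mouse platelets, was the 1 gene past the fold, at 14 and 35 UMIs (ratio 0.630, 0.313 to 1.20). P2ry12 had 1603 CPM in Gsdme-KO and 1936 CPM in WT (ratio 0.828, 0.707 to 0.968), and P2rx1, the ATP-gated channel, 318 and 301 CPM (1.06). P2ry12 had a ratio of 1.01 at or above 3%. The thromboxane receptor Tbxa2r and the adrenergic receptor Adra2a had 0 UMIs in both libraries, and the thrombin receptor F2rl3 had 0 in Gsdme-KO and 1 in WT.

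Signalling genes were split. Of 26 genes, 25 were measured, 2 at least 1.5-fold higher (Btk and Fyn) and 3 at least 1.5-fold lower (Orai1, Stim1 and Syk), with a median log2 ratio of -0.17, and 0.03 at or above 3%. Stim1, the calcium sensor of the endoplasmic reticulum, had 12 and 38 UMIs (ratio 0.498, 0.237 to 0.973), and Orai1, the channel it opens, 6 and 20 (0.473, 0.155 to 1.22). Gng11 had 6340 CPM in Gsdme-KO and 7134 CPM in WT, a ratio of 0.889 (0.821 to 0.962) that was 1.07 at or above 3%.

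Rgs18 lay on the higher side. It had 1927 CPM in Gsdme-KO and 1499 CPM in WT, a ratio of 1.29 (1.10 to 1.502), and 1.51 (1.28 to 1.77) at or above 3%. Over 13 alternatives the Rgs18 ratio lay between 1.18 and 1.79. It was also above 1, between 1.33 and 1.67, in the 3 comparison populations in which Rgs18 was measured.

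The eicosanoid enzymes, which make thromboxane and 12-HETE from arachidonic acid, had no gene past the fold in either direction among 5 measured of 6. Alox12 had 1739 CPM in Gsdme-KO and 1919 CPM in WT (ratio 0.906, 0.777 to 1.06), and a ratio of 1.11 at or above 3%. Alox5ap, the lipoxygenase-activating protein, had 1188 and 1565 CPM (0.759, 0.633 to 0.907), and Ptgs1, cyclooxygenase 1, had 208 and 297 CPM (0.700, 0.447 to 1.08).

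Most cytoskeleton genes were slightly lower in Gsdme-KO, although their sum was not. Of 20 genes, 19 were measured, 16 lay below a ratio of 1, 3 were at least 1.5-fold lower (Actn1, Tuba4a and Tubb1) and 0 at least 1.5-fold higher, with a median log2 ratio of -0.33 and of -0.08 at or above 3%. Tubb1 is a rule marker. Summed over the list, which Tmsb4x dominates, the ratio was 1.05 (1.03 to 1.07). Actn1, an actin crosslinker, had 688 CPM in Gsdme-KO and 1059 CPM in WT (0.650, 0.513 to 0.818), and 0.827 (0.641 to 1.06) at or above 3%. Tmsb4x, the actin monomer-binding thymosin beta 4, was higher at 93522 and 83677 CPM, a ratio of 1.12 (1.09 to 1.14), and of 1.30 (1.27 to 1.33) at or above 3%. Its ratio was above 1 in all 6 comparison populations too, between 1.14 and 1.52.

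Megakaryocyte transcription factor genes lay on the other side. Of 12 genes, 6 were measured, 5 were above a ratio of 1, 1 was at least 1.5-fold higher and 0 at least 1.5-fold lower, with a median log2 ratio of 0.26. Runx1, the gene past the fold, had 571 CPM in Gsdme-KO and 367 CPM in WT (ratio 1.56, 1.15 to 2.12), and 1.74 (1.13 to 2.68) at or above 3%. Without members that held markers of another type its ratio was 0.844. Leukocytes express Runx1 as well, and in at least 1 library its level in members was 0.673 times that of the highest comparison population. Gata1 was not measured, with 2 UMIs in Gsdme-KO and 13 in WT.

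**Figure D4:**
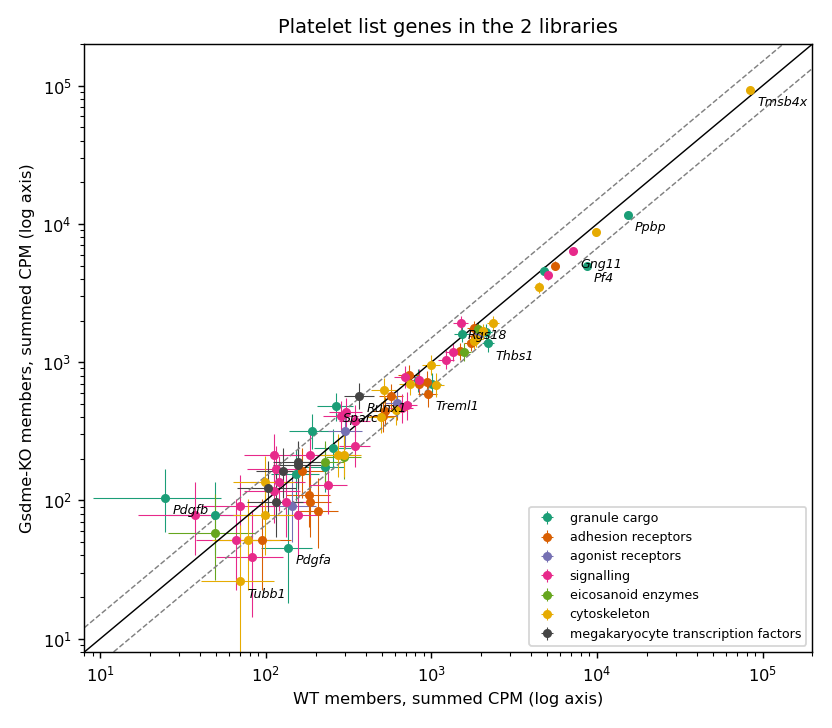
Summed CPM of the measured genes of 7 platelet lists in Gsdme-KO members (y axis) against WT members (x axis), both on log axes, with exact 95% counting intervals; the solid line marks equal levels and the dashed lines the 1.5-fold bounds. Most genes lie between the equal line and the lower dashed line, Pf4 (ratio 0.576) and Thbs1 (0.621) lie below it, and Rgs18 (1.29) lies above the equal line.

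Class I antigen genes, which platelets are known to carry, were led by B2m. B2m, the invariant light chain, had 12219 CPM in Gsdme-KO and 17844 CPM in WT members, a ratio of 0.685 (0.648 to 0.723). Its median per member was 15 UMIs in Gsdme-KO and 22 in WT, and its ratio was 0.766 (0.723 to 0.812) at or above 3% and between 0.629 and 0.813 over 13 alternatives. In the 6 comparison populations the B2m ratio lay between 1.00 and 1.54. H2-D1 had 1395 and 1882 CPM (0.741, 0.627 to 0.873) and H2-K1 1084 and 951 CPM (1.14, 0.928 to 1.40, and 0.888 at or above 3%). Over the list, 6 of 10 genes were measured, 1 was past the fold in each direction (H2-Q7 higher, Tapbp lower), and the median log2 ratio was -0.12. The H2 genes are near-identical copies of each other, so their counts are uncertain.

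Among the immediate early genes, which cells induce within minutes of a stimulus, Zfp36 and Nr4a1 were lower in Gsdme-KO. Of 10 immediate early genes, all measured, 1 was at least 1.5-fold higher (Jun) and 2 at least 1.5-fold lower (Nr4a1 and Zfp36), with a median log2 ratio of -0.17. Zfp36, the mRNA-decay protein tristetraprolin, had 844 CPM in Gsdme-KO and 1528 CPM in WT (0.552, 0.449 to 0.676). At or above 3% it had 267 and 1225 CPM, a ratio of 0.218 (0.138 to 0.330), while in the 6 comparison populations the ratio lay between 0.922 and 1.17. Nr4a1, a nuclear receptor, had 286 and 589 CPM (0.485, 0.338 to 0.684), and a ratio of 0.541 (0.296 to 0.938) at or above 3%. Zfp36 is among the genes that neutrophils hold in large amounts, and the neutrophil list moved with it: 181 CPM in Gsdme-KO and 1241 CPM in WT at or above 3%. The part of neutrophil RNA in this difference was not tested.

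The cytokine genes Il1b and Cxcl2 were lower in Gsdme-KO among the members at or above 3%. Il1b, interleukin 1 beta, was seen in 24.1% of Gsdme-KO and 38.0% of WT members, with 2842 and 4251 CPM (0.669, 0.597 to 0.748). At or above 3% it had 554 and 2224 CPM, a ratio of 0.249 (0.183 to 0.333). The 5 members with most Il1b held 66.4% of its UMIs in Gsdme-KO and 39.1% in WT. Cxcl2, a neutrophil-attracting chemokine, had ratios of 1.09 (0.963 to 1.23) over all members and 0.251 (0.176 to 0.350) at or above 3%. Both genes were seen in at least 90% of neutrophil-gene barcodes after thinning, and the neutrophil list moved with them in the same members (181 CPM in Gsdme-KO, 1241 CPM in WT), whose part in the difference was not tested.

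Cell death and interferon genes were too sparse for more than values. Of 14 cell death genes 5 were measured, 0 higher and 2 lower by the fold, and of 15 interferon-response genes 5 were measured, 0 higher and 1 lower (Ifitm3), with median log2 ratios of -0.34 in each list. Bcl2l1, which encodes the survival protein BCL-XL that limits platelet lifespan in mice, had 9 UMIs in Gsdme-KO and 38 in WT, a ratio of 0.373 (0.159 to 0.785) that ranged from 0.0905 to 0.806 over the alternatives. Bax had 5 and 18 UMIs, and Gsdmd, the gasdermin cut by inflammatory caspases, 2 and 0. The nuclear RNAs Malat1 (3556 and 2430 CPM) and Neat1 (311 and 144 CPM) had ratios of 1.46 (1.30 to 1.65) and 2.16 (1.37 to 3.44). At or above 3%, Malat1 had a ratio of 1.01 (0.827 to 1.24) and Neat1 of 1.42 (0.783 to 2.55).

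Across all genes, a rule of size named 10 genes higher and 10 lower in Gsdme-KO members, ranked by the interval end nearest 1. The higher ones were Itgbl1, Hspa1a, Serpinb9, Vti1a, Ctla2b, Man1a, Atox1, Nktr, Polr2a and Slc8a1. Most of the UMIs of several came from 1 Gsdme-KO member: 86.5% for Itgbl1, 93.3% for the heat shock gene Hspa1a, 79.4% for the granzyme inhibitor Serpinb9 and 65.6% for the sodium-calcium exchanger Slc8a1. Vti1a, a vesicle fusion protein, was more evenly held, with at most 17.6% of the Gsdme-KO UMIs in 1 member. It had 34 UMIs in Gsdme-KO and 10 in WT, a ratio of 5.36 (2.59 to 12.2). No separate ratio at or above 3% is given for Vti1a. How far its UMIs came from the members under 3% was not tested.

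Ctla2b and Atox1 differed in other cells as well. Ctla2b, a cathepsin inhibitor-like gene, had 1168 CPM in Gsdme-KO and 375 CPM in WT members, a ratio of 3.12 (2.41 to 4.06), and was seen in 68.5% and 36.2% of members. Its ratio was between 2.63 and 5.21 in the 4 comparison populations in which it was measured. Its near-identical neighbour Ctla2a had 16547 and 14705 CPM, a ratio of 1.13 (1.36 at or above 3%), and reads may be split between the copies. Atox1, a copper chaperone, had 370 and 107 CPM, a ratio of 3.45 (2.14 to 5.72), and between 1.23 and 1.93 in the 6 populations. Fth1, ferritin heavy chain, was also higher in members (14004 and 10405 CPM, ratio 1.35) and in all 6 populations, between 1.27 and 1.73.

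The lower genes were Tpm3-rs7, Marchf3, C3ar1, Cd93, Pde7b, Hacd4, Pik3ap1, Cd33, Ccl4 and Apoe. C3ar1, Cd93, Cd33, Ccl4 and Apoe are expressed by myeloid cells, and in at least 1 library their levels in members were at most 0.120 times those of the highest comparison population. In the WT library 1 member held 69.6% of the Pde7b UMIs and 44.4% of the C3ar1 UMIs. Tpm3-rs7, a copy related to tropomyosin 3, had 9 UMIs in Gsdme-KO and 101 in WT members, a ratio of 0.140 (0.0624 to 0.277). It was lower in all 6 comparison populations too, with ratios of 0.102 to 0.207, and its counts depend on how reads of the tropomyosin copies were assigned.

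Hacd4 was the lower gene most evenly held by the members. It encodes a dehydratase of very long-chain fatty acid synthesis, and its level in members stood at least 4.73 times above the highest comparison population in each library. Hacd4 had 171 UMIs (1110 CPM) in Gsdme-KO and 637 UMIs (2624 CPM) in WT members, a ratio of 0.423 (0.355 to 0.501). It was seen in 53.7% of Gsdme-KO and 84.7% of WT members, and at most 7.02% and 2.67% of its UMIs came from 1 member. At or above 3% it had 1738 and 3311 CPM, a ratio of 0.525 (0.439 to 0.625), and over 13 alternatives the ratio lay between 0.357 and 0.525. In the 5 comparison populations with enough UMIs its ratio lay between 0.646 and 1.09. Hacd4 overlaps Focad on the other strand, and whether strand was used in counting is not stated in the labels.

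**Figure D5:**
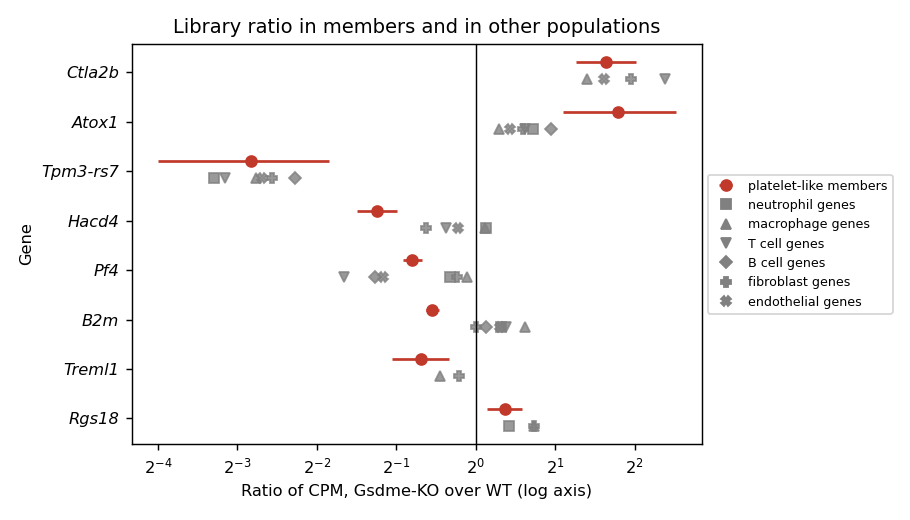
Ratio of CPM in Gsdme-KO over WT (log x axis) for 8 genes in members (red, with exact 95% counting intervals) and in comparison populations with at least 20 UMIs (grey). Ctla2b, Atox1 and Tpm3-rs7 lie on the same side of 1 in members and in the other populations, while B2m is at 0.685 in members and at 1.00 to 1.54 elsewhere.

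Platelet genes were also looked for in the comparison populations, here taken without regard to the platelet rule. At least 2 rule markers were held by 7 of 1004 Gsdme-KO (0.697%, 0.281 to 1.43) and 9 of 990 WT neutrophil-gene barcodes (0.909%, 0.417 to 1.72), and all but 1 of the 7 and all 9 were themselves members. B cell-gene barcodes, which should lack these genes, had 0 of 160 (up to 2.28%) and 0 of 179 (up to 2.04%). T cell-gene barcodes had 0.952% and 1.77%, and the deeper macrophage-gene barcodes 1.35% and 1.28%. After thinning, neutrophil-gene barcodes had 0.299% in Gsdme-KO (0.0617 to 0.871) and 0.404% in WT (0.110 to 1.03). Macrophage-gene barcodes then had 0.0847% (0.0103 to 0.306) and 0.128% (0.0265 to 0.374), and T cell-gene barcodes 0% and 0.885%. These thinned shares rest on few barcodes and their intervals overlap, so no order of the populations is read from them. At least 1 panel gene was seen in 23.7% of Gsdme-KO and 19.9% of WT neutrophil-gene barcodes, at median depths of 1641.5 and 1741 UMIs. In B cell-gene barcodes, with medians of 2776.5 and 2342 UMIs, it was 8.75% and 7.26%. After thinning, the values were 10.7% and 7.88% for neutrophil genes, and 3.75% and 0.559% for B cell genes. The remaining populations had 1.90% to 9.78% in Gsdme-KO and 2.65% to 14.5% in WT, highest with endothelial genes.

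The panel genes most often seen with neutrophil genes were F5 (13.9% in Gsdme-KO, 10.3% in WT) and P2ry12 (8.67% and 8.28%), which were in 2.50% and 1.68% (F5) and 2.50% and 1.12% (P2ry12) of B cell-gene barcodes. Ppbp and Pf4 did not follow that order in both libraries. Ppbp was in 3.78% of Gsdme-KO and 5.15% of WT neutrophil-gene barcodes, against 5.00% and 3.35% of B cell-gene barcodes, and Pf4 in 4.38% and 5.56%, against 4.38% and 5.59%. Fibroblast-gene barcodes held 2 rule markers in 6.94% and 7.08%, at median depths of 11315 and 8766 UMIs, and in 0.231% and 0.257% after thinning.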

How the data were processed

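Per the labels' protocols, abdominal aorta was digested enzymatically, red cells were lysed and libraries were made on the BD Rhapsody system. The authors deposited, per library, whole-number counts per gene and barcode with no normalization (31253 features). That the counts are of UMIs follows from the platform. CASAVA 1.8, STARsolo and the build mm10 are named in the submitters' processing notes. Positions came from GENCODE M21 (31107 features matched).

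Members, the 6 comparison populations and shares were computed with Python 3.11.15, numpy 2.4.6 and scipy 1.17.1. Counts were summed over members and expressed per 1000000 (CPM). Shares carry Clopper-Pearson intervals, sums Poisson intervals and ratios conditional binomial intervals, all exact. The ratio intervals alone were checked, on simulated Poisson counts that hold no spread between members. Thinning used random seed 7. Genes were named with at least 30 UMIs and 5% of members in the higher library, a ratio past 1.5, at least 10% of the level of the highest comparison population, and up to 10 per direction. Gene models and ribosomal, mitochondrial, haemoglobin and sex-linked genes were left out. Doublets were not called. TMM factors (edgeR 4.0.16) served as an alternative. Members, lists and several examples were chosen with earlier results of these data known. No cell annotation was used here. Members of the gene lists and panel that the text does not name are counted in the totals and are not reported here.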

Additional observations from a re-analysis of the deposited data

How the results depend on the processing

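No paired analysis was possible because each group was 1 library. The share of members in Gsdme-KO and WT was 0.707% and 1.34% at a minimum of 1000 UMIs, 0.512% and 1.12% with 3 rule markers, 0.899% and 1.71% with the rule read after thinning to 500 UMIs, and 2.11% and 3.50% of barcodes without Col3a1 and Cdh5. Added after seeing the data, it was 1.55% in Gsdme-KO with 3 of the 10 panel genes in place of the rule markers, 3.07% and 3.68% without exclusions (ratio 0.836), and 10.8% and 16.5% per neutrophil-gene barcode. Members with 2 markers of another cell type were 71.2% and 81.6% at 1000 UMIs, 29.6% and 28.8% after thinning, and 69.4% in WT with 3 rule markers. Neutrophil-gene barcodes with a panel gene were 10.7% and 7.88% after thinning. Genes past the fold numbered 318 higher and 324 lower with 3 rule markers, 146 and 191 after thinning, 3005 and 1768 with no minimum, 104 and 130 without members holding markers of another type, 329 higher in members with 3 panel genes and 198 higher at or above 3% of UMIs in the enriched genes (the last pair added after seeing the data). Between 614 and 8081 genes were measured under these settings, against 2804 over all members.

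All 7 platelet list medians stayed within the median counting interval of their genes under 13 alternatives. That interval is the width for a single gene, so staying within it is a weak check of a list median. The median log2 ratio ranged from -0.44 to -0.04 for adhesion receptors and from -0.39 to 0.12 for granule cargo. For megakaryocyte transcription factors it ranged from 0.03 to 0.75. Of 1831 gene ratios over 141 genes, 1579 stayed within their own interval and 228 lay outside it. A change of side was counted only for genes past 1.5-fold over all members, and 24 ratios did so. Genes under that fold that crossed 1 are within the first 2 counts, such as Gng11 (0.889, and 1.07 at or above 3%). The cause was not tested. With 3 rule markers the ratios that changed side were Serpinb9 (0.543), Slc8a1 (0.760), Sparc (0.413), Cd36 (1.33), Fyn (0.528) and H2-Q7 (0.317). After thinning they were Tuba4a (1.51) and Bax (1.13). Without members holding markers of another type they were Hspa1a (0.336), Cd33 (1.34), Ccl4 (1.34), Thbs1 (1.02), Cd63 (0.244), Gp1ba (1.49), Cd36 (1.68) and Runx1 (0.844). With 3 panel genes they were Serpinb9 (0.936), Cd36 (1.08), H2-Q7 (0.720) and Jun (0.962), and at or above 3% Hspa1a (0.571), Serpinb9 (0.971) and H2-Q7 (0.832). Without the 5 deepest members Hspa1a was at 0.726. Depth limits genes with few UMIs, since 3 UMIs were worth 19.5 CPM in Gsdme-KO and 12.4 CPM in WT members.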

Other observations

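Class II antigen genes were seen in members although platelets do not make them. H2-Aa had 1564 CPM in Gsdme-KO and 643 CPM in WT members, a ratio of 2.43 (1.98 to 2.996), and Cd74, the invariant chain, 1428 and 630 CPM (2.27, 1.84 to 2.80). In the members with at least 3% of UMIs in the 20 enriched genes, the ratios were 0.770 (0.464 to 1.24) for H2-Aa and 1.05 (0.626 to 1.73) for Cd74. Cd40lg, the T cell costimulator that platelets also carry as protein, had 0 UMIs in Gsdme-KO and 1 in WT members.

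Pim1, a serine-threonine kinase gene, had 1992 CPM in Gsdme-KO and 1891 CPM in WT over all members, a ratio of 1.05 (0.909 to 1.22). In the members at or above 3% it had 437 and 1197 CPM, a ratio of 0.365 (0.255 to 0.512). The neutrophil list summed to 181 CPM in Gsdme-KO and 1241 CPM in WT in the same members, and its part in the difference was not tested. In the 6 comparison populations the Pim1 ratio lay between 0.810 and 0.993.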
